A study of Mus musculus with 12 samples.

Results

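The genes described are 10 genes of MHC class I and of its peptide supply: the heavy chains H2-K1 and H2-D1, the light chain B2m, the peptide transporter genes Tap1 and Tap2, tapasin (Tapbp), the inducible proteasome subunits Psmb8, Psmb9 and Psmb10, and the transactivator Nlrc5. They were chosen by symbol, as the rows of the count table whose Ensembl mouse identifier maps to these names, and make up 10 of the 25700 genes listed. RNA was measured in 12 libraries of eYFP-positive Schwann cells sorted from sciatic nerves at postnatal day 5, made by Smart-Seq2, a full-length cDNA method for small amounts of RNA. All mice were P0Cre -/+, with Cre switching on the Rosa26 eYFP reporter (ReYFP Tg/+) in the Schwann cell lineage, and also carried the ubiquitous βAct-DsRed Tg/+ reporter, so that the gates share every allele. The allSC gate held all eYFP-positive cells, the mSC gate those with high side scatter, a measure of granularity that was taken to enrich for myelinating cells, and the nmSC gate those with low side scatter, for cells not myelinating at the time. Each gate has 4 libraries, and the labels give the libraries of a gate the subject numbers 1 to 4, the same in every gate. By the study's methods both sexes are mixed in each gate, and the labels do not say which library is of which sex. The gates are populations sorted by scatter and not by a class I measurement. The cells of the allSC gate include those of both other gates, so that an allSC library is a mixture and not an untreated control.

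MHC class I molecules show peptides from inside a cell to CD8+ T cells, and consist of a variable heavy chain and the invariant light chain β2-microglobulin. The peptides are cut by the proteasome, whose inducible catalytic subunits can take the place of the constitutive ones, are pumped into the endoplasmic reticulum by the transporter formed of Tap1 and Tap2, and are loaded with the help of tapasin. Nlrc5 acts on promoters of class I genes through factors bound at the X and Y boxes, and interferons raise many of these genes by way of Irf1. Schwann cells are known to be able to carry class I molecules and to raise them under interferon-γ.

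The promoters are shown first because the members differ in exact matches to these elements. The heavy chains, the light chain and Nlrc5 are also linked through them. RefSeq promoters (GRCm38.p6), from 250 bases before to 50 after each start, were in the table used for 8 of the 10 members, Tap2 and Nlrc5 being without one. In the promoters of H2-K1, H2-D1 and B2m the X2 core TGACG was followed 25 bases further on by ATTGG, the Y core CCAAT read on the other strand. The 30 bases from the first base of the X2 core are given below 5′ to 3′ on the strand of the gene, with the matches to both cores in capitals. H2-Q7, a class I gene outside the 10 members, had the pair at 24 bases. Tap1 had the X2 core and no ATTGG behind it in this stretch.
H2-K1, chr17:34000359-34000388, minus strand: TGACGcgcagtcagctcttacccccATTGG
H2-D1, chr17:35262993-35263022, plus strand: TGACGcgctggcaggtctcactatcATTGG
B2m, chr2:122147609-122147638, plus strand: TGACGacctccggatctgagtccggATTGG
H2-Q7, chr17:35439091-35439120, plus strand: TGACGtgtaacagttctcacccctATTGGg
Tap1, chr17:34187470-34187499, plus strand: TGACGacagagggtcctgccctcaatctgg

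Outside the capitals the stretches of the 2 heavy chains were much alike, whereas that of B2m was not. H2-K1 and H2-D1 shared 23 of the 30 bases, and H2-K1 and B2m shared 13. The cores lay close to the start, with the X2 core 41 and 55 bases before the 2 RefSeq starts of H2-K1, 101 before that of H2-D1, 78 before that of B2m and 86 before that of Tap1. In GENCODE the stretch of H2-D1 falls within the first exon of a longer H2-D1 transcript, and that of Tap1 within an exon of Psmb9, which runs the other way. The RefSeq starts of Tap1 and Psmb9 are 226 bases apart, so that both promoters hold the same X2 core.

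Short motifs are common, and a match is a description of the letters and not a binding site. Of the 32851 promoters in the table, 20.8% held TGACG on either strand and 37.4% held CCAAT, while 0.201% (66 promoters) held TGACG followed by ATTGG at 24 to 26 bases from start to start, in either orientation. This spaced search was added after the matches had been seen. The interferon-stimulated response element core GAAANNGAA, found in 8.56% of promoters, was present in that of B2m only among the 8 members. It is shown in capitals in the following 110 bases of B2m, beside those of H2-K1, which hold no exact match. The NF-κB core GGGANTTCC, held by 1.68% of promoters, had no exact match in the 8 members. The stretch of H2-K1 below opens with ggggattcccc, which is near that core without matching it. Only exact matches were searched for, so variants of the 4 motifs were missed and their absence is not shown. None of the 4 motifs was found in the promoters of Psmb8 and Psmb10, and that of Tapbp held only the Y core.
B2m, chr2:122147539-122147648, plus strand: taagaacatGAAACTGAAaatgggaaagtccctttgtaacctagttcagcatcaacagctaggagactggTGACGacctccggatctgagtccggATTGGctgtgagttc
H2-K1, chr17:34000349-34000458, minus strand: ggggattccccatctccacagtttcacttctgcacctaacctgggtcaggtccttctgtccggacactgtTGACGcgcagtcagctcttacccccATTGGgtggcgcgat

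The counted reads per library ran from 8180927 to 16918122. The normalization factors differed by gate, from 0.744 to 0.871 in mSC, from 0.986 to 1.03 in allSC and from 1.16 to 1.27 in nmSC. Sox10, which marks the Schwann lineage, averaged 267 ± 97.4 CPM (SD, n = 4) in mSC and 266 ± 49.6 in nmSC. Values below are CPM, read counts relative to library size scaled by these TMM factors, and 3 reads, taken as the floor, correspond to 0.177 to 0.367 CPM. Gates were compared with edgeR's quasi-likelihood test over all 18597 genes that passed the filter on low counts, and "adjusted p" is its Benjamini-Hochberg value, called at a threshold of 0.05.

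Between mSC and nmSC the transporter, both heavy chains, 2 of the 3 inducible proteasome subunits and Nlrc5 were lower in mSC, while the light chain, tapasin and Psmb10 were not called. All 10 members passed the filter. Of these, 7 were lower in mSC, against 20.1% of all genes tested, 0 were higher, against 20.4%, and 3 were not called. Psmb8, Psmb9 and Nlrc5 had mSC libraries with few reads and passed the filter only with libraries of other gates. This ties their direction to the filter. Without a filter 7 members were likewise lower and 0 higher. The members were also chosen with earlier results of these data known, so the shares are a description and no test of the set. For 6 members the CPM of the gates did not overlap, against 34.2% of all genes tested. The median log2 fold change was -1.40 over the members and -0.16 over all genes. In bulk libraries, fewer cells expressing a gene and less of its RNA per cell cannot be told apart.

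**Figure D1:**
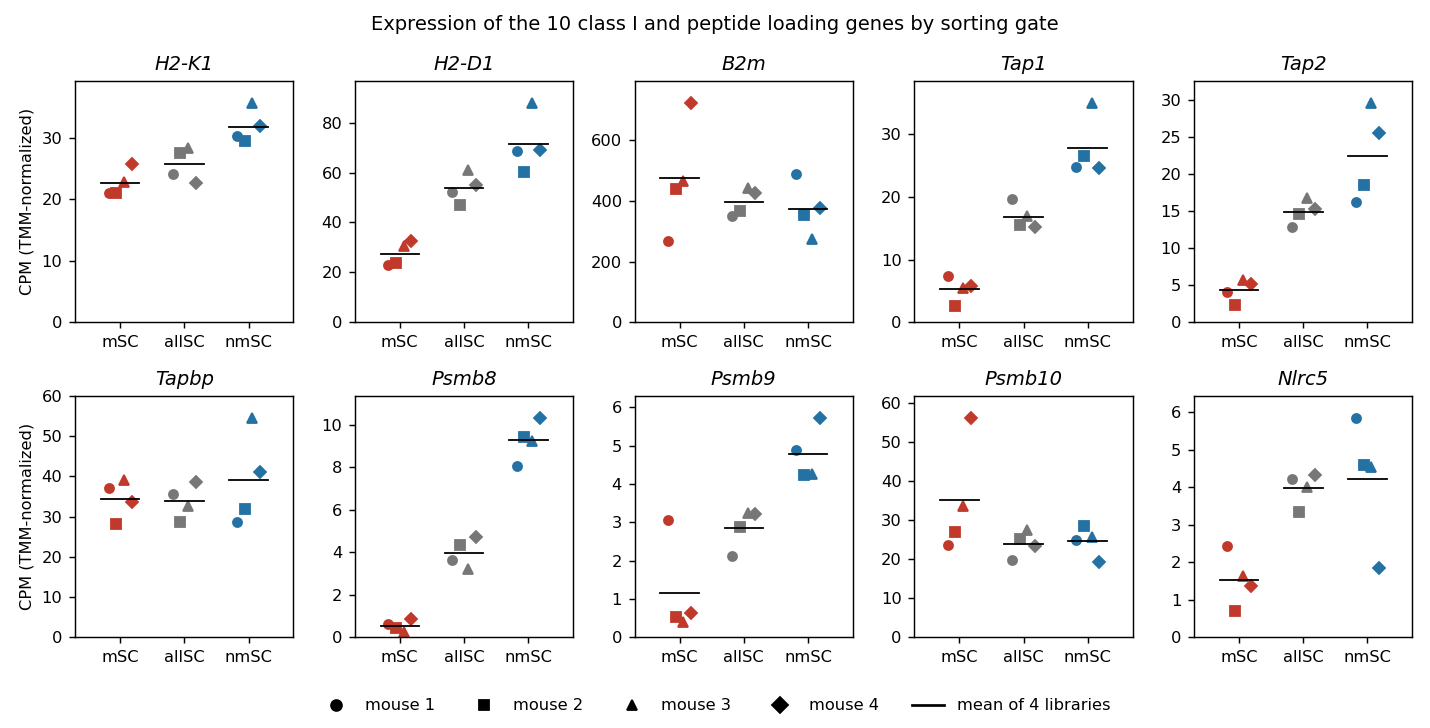
CPM (linear axis from 0) of each member in the mSC, allSC and nmSC libraries, with a symbol for each mouse and a line at the mean of 4 libraries. Tap1, Tap2, H2-D1 and Psmb8 are lowest in all 4 mSC libraries, while B2m, Tapbp and Psmb10 overlap between the gates.

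H2-D1 (ENSMUSG00000073411, chr17:35262730-35267499, plus strand) encodes a classical heavy chain and was the more changed of the pair. In mSC it stood at 22.8, 23.8, 30.4 and 32.5 CPM in mice 1 to 4, in allSC at 52.2, 47.2, 61.2 and 55.2, and in nmSC at 68.5, 60.1, 87.9 and 69.2. Every mSC library was below every allSC library, and the nmSC libraries overlapped those of allSC at one end. H2-D1 was 2.62-fold lower in mSC than in nmSC (log2 fold change -1.39, SE 0.155, adjusted p = 6.06e-07) and also lower than in allSC (-0.98, SE 0.154, adjusted p = 1.45e-04). Against allSC the nmSC value was 0.41 (adjusted p = 0.104).

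H2-K1 (ENSMUSG00000061232, chr17:33996017-34000347, minus strand), the other classical heavy chain, had a smaller difference. It stood at 21.0, 21.1, 22.9 and 25.8 CPM in mSC and at 30.2, 29.5, 35.7 and 31.9 in nmSC. The gates did not overlap, but their nearest libraries were close. H2-K1 was 1.41-fold lower in mSC than in nmSC (log2 fold change -0.49, SE 0.133, adjusted p = 0.00642). The allSC libraries, from 22.7 to 28.4 CPM, overlapped those of mSC and lay below those of nmSC, and neither comparison with them was called (mSC -0.18, adjusted p = 0.362, and nmSC 0.31, adjusted p = 0.173). Both were called when libraries were scaled by size alone (-0.50, adjusted p = 0.00885, and 0.56, adjusted p = 0.00473).

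B2m (ENSMUSG00000060802, chr2:122147686-122153083, plus strand), which encodes the light chain, was the most abundant member and did not fall with the heavy chains. It stood at 268, 441, 467 and 723 CPM in mSC, at 350.3, 367, 442 and 426 in allSC, and at 489, 355, 275 and 376 in nmSC. The mSC libraries held both the lowest and the highest value of all 12. The mSC to nmSC difference was 0.34 on the log2 scale, with a 95% interval from -0.12 to 0.80 (adjusted p = 0.214), and it was -0.26 when libraries were scaled by size alone. Without the mSC library of mouse 1, B2m was called higher in mSC (0.56, adjusted p = 0.0191). Set per length against B2m in the same library, H2-D1 amounted to 4.28% to 8.10% of B2m in mSC, 12.2% to 14.2% in allSC and 13.3% to 30.4% in nmSC. No mSC library reached the share seen in any library of the other gates. For H2-K1 these shares overlapped between the gates, at 3.04% to 6.70% in mSC and 5.27% to 11.1% in nmSC. The shares use the mean transcript length, 903.8 bases for H2-D1 against 2579 for the union of its exons, and 860 for B2m by both. By the union of exons the shares of both heavy chains would be lower, by the same factor in every gate.

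Tap1 and Tap2, the 2 chains of the peptide transporter, differed between mSC and nmSC to the same extent. Tap1 (ENSMUSG00000037321, chr17:34187553-34197225, plus strand) stood at 7.39, 2.6, 5.43 and 5.73 CPM in mSC, at 19.7, 15.5, 16.9 and 15.3 in allSC, and at 24.9, 26.5, 35.0 and 24.7 in nmSC. No library of a gate reached into the range of another gate, with mSC lowest and nmSC highest. Tap1 was 5.22-fold lower in mSC than in nmSC (log2 fold change -2.38, SE 0.230, adjusted p = 8.13e-08) and lower than in allSC (-1.66, SE 0.229, adjusted p = 3.21e-05).

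Tap2 (ENSMUSG00000024339, chr17:34203527-34216321, plus strand) stood at 4.07, 2.34, 5.74 and 5.24 CPM in mSC, at 12.9, 14.6, 16.9 and 15.4 in allSC, and at 16.2, 18.5, 29.6 and 25.6 in nmSC. The mSC libraries were again apart from the rest, whereas the lowest nmSC library lay within the allSC range. Tap2 was 5.20-fold lower in mSC than in nmSC (log2 fold change -2.38, SE 0.243, adjusted p = 1.78e-07) and lower than in allSC (-1.79, SE 0.243, adjusted p = 2.79e-05).

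Tapbp (ENSMUSG00000024308, chr17:33915899-33929292, plus strand) encodes tapasin, which bridges the transporter and the empty class I molecule. It stood at 37.0, 28.1, 39.2 and 33.5 CPM in mSC and at 28.6, 31.9, 54.6 and 41.1 in nmSC, with allSC from 28.6 to 38.5. The 3 gates overlapped. The mSC to nmSC difference was -0.18 (95% interval -0.56 to 0.20, adjusted p = 0.430). It was called lower, at -0.73 (adjusted p = 0.00181), when libraries were scaled by size alone, a scaling that moved the median of all genes to -0.73 as well.

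**Figure D2:**
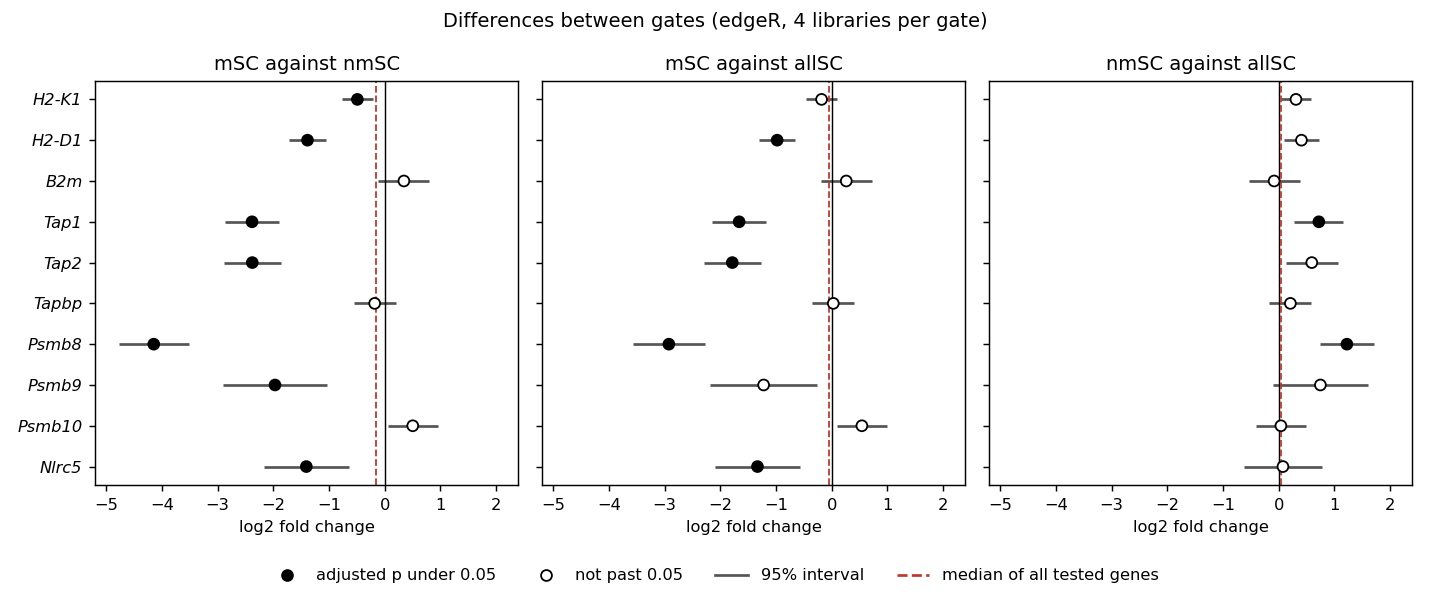
Log2 fold changes of the 10 members in the 3 gate comparisons, with 95% intervals (horizontal lines), filled points for an adjusted p under 0.05 and a dashed line at the median of all tested genes. Against nmSC the mSC values run from -4.15 for Psmb8 to 0.50 for Psmb10, and for nmSC against allSC only Tap1 and Psmb8 are filled.

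Psmb8 (ENSMUSG00000024338, chr17:34197721-34201454, plus strand), the inducible counterpart of the constitutive subunit Psmb5, had the largest difference of the members. It stood at 0.610, 0.434, 0.233 and 0.873 CPM in mSC, from 9, 5, 3 and 7 reads, at 3.64, 4.35, 3.23 and 4.72 in allSC, and at 8.06, 9.43, 9.26 and 10.3 in nmSC. The 3 gates were separate from each other, and 1 mSC library was at the floor of 3 reads. Psmb8 was 17.7-fold lower in mSC than in nmSC (log2 fold change -4.15, SE 0.299, adjusted p = 1.28e-09) and lower than in allSC (-2.93, SE 0.309, adjusted p = 1.12e-06).

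Psmb9 (ENSMUSG00000096727, chr17:34181987-34187764, minus strand), the inducible counterpart of Psmb6, stood at 3.05, 0.521, 0.388 and 0.623 CPM in mSC, from 45, 6, 5 and 5 reads. It stood at 2.11, 2.88, 3.23 and 3.22 CPM in allSC and at 4.90, 4.25, 4.26 and 5.73 in nmSC. The mSC library of mouse 1 was far above the other mSC libraries and within the allSC range, but below every nmSC library. Psmb9 was 3.92-fold lower in mSC than in nmSC (log2 fold change -1.97, SE 0.447, adjusted p = 0.00165), and the difference was -3.23 without that library. Against allSC it was -1.22 (adjusted p = 0.0717), and -2.47 (adjusted p = 4.79e-05) without it. The same library had the highest mSC values of Tap1 and Nlrc5 and the lowest of H2-K1, H2-D1, B2m and Psmb10.

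Psmb10 (ENSMUSG00000031897, chr8:105935735-105938444, minus strand), the inducible counterpart of Psmb7, did not fall in mSC. It stood at 23.5, 26.8, 33.7 and 56.1 CPM in mSC and at 24.8, 28.5, 25.7 and 19.3 in nmSC, with allSC from 19.9 to 27.4. The gates overlapped, and the mSC library of mouse 4 was highest, as for B2m. The mSC to nmSC difference was 0.50 (SE 0.216, adjusted p = 0.0704), and it was -0.091 when libraries were scaled by size alone. It was called higher in mSC with the scaling of DESeq2 (0.57, adjusted p = 0.0425), with the Wald test of DESeq2 (0.60, adjusted p = 0.0302), without the mSC library of mouse 1 (0.67, adjusted p = 0.0118) and without that of mouse 2 (0.63, adjusted p = 0.0425).

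Nlrc5 (ENSMUSG00000074151, chr8:94434356-94527272, plus strand), the transactivator of class I genes, stood at 2.44, 0.695, 1.63 and 1.37 CPM in mSC, at 4.22, 3.34, 4.00 and 4.32 in allSC, and at 5.86, 4.59, 4.55 and 1.84 in nmSC. The nmSC library of mouse 4 lay inside the mSC range, while mSC and allSC did not overlap. Nlrc5 was 2.65-fold lower in mSC than in nmSC (log2 fold change -1.41, SE 0.362, adjusted p = 0.00448) and lower than in allSC (-1.33, SE 0.362, adjusted p = 0.0151). The latter call was lost without the mSC library of mouse 2 (adjusted p = 0.0545).

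The whole population (allSC) was compared with each enriched gate to place the members between them. These comparisons share libraries with the one above. Against allSC, 5 members were lower in mSC, against 8.8% of all genes tested, and 0 were higher, against 8.76%. The 5 were H2-D1, Tap1, Tap2, Psmb8 and Nlrc5. The limit set by the filter for Psmb8 and Nlrc5 holds here too. In nmSC against allSC, 2 members were higher, against 2.82%, and 0 were lower, against 7.55%. These were Psmb8 (log2 fold change 1.22, SE 0.231, adjusted p = 0.00128) and Tap1 (0.72, SE 0.210, adjusted p = 0.0330). The call of Tap1 was lost when any one of the libraries of mouse 2 or 3 of either gate, or the allSC library of mouse 4, was left out (adjusted p up to 0.125). In mSC against allSC the median was -1.10 over the members and -0.05 over all genes, and in nmSC against allSC it was 0.36 and 0.04.

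Per length, with counts divided by the mean transcript length (RPKM), the members spanned a wide range in each gate. Levels and order depend on the length used. In allSC, Psmb10 ranked 4 among the members by mean transcript length and 3 by the union of exons. In nmSC, B2m stood at 435 ± 103 RPKM (SD, n = 4), H2-D1 at 79.0 ± 13.0, Tapbp at 35.6 ± 10.6, H2-K1 at 31.6 ± 2.74 and Psmb10 at 30.8 ± 4.84. The last 3 of these did not differ beyond their spread. Tap2 at 15.8 ± 4.37 and Tap1 at 11.8 ± 2.07 RPKM came next and were also within their spread of each other. Psmb8 at 7.71 ± 0.778, Psmb9 at 4.36 ± 0.640 and Nlrc5 at 1.51 ± 0.608 RPKM were lowest in that gate. In allSC the levels were 461 ± 51.8 RPKM for B2m, 59.7 ± 6.48 for H2-D1, 30.9 ± 3.86 for Tapbp, 29.9 ± 3.98 for Psmb10 and 25.5 ± 2.69 for H2-K1, and then 10.5 ± 1.14 for Tap2, 7.13 ± 0.861 for Tap1, 3.31 ± 0.561 for Psmb8, 2.61 ± 0.480 for Psmb9 and 1.43 ± 0.158 for Nlrc5. The order matched that of nmSC except that Psmb10 and H2-K1, within their spread of each other, changed places. In mSC H2-D1 no longer stood above the next members. B2m stood at 552 ± 218 RPKM, Psmb10 at 43.8 ± 18.4, Tapbp at 31.5 ± 4.40, H2-D1 at 30.3 ± 5.33 and H2-K1 at 22.5 ± 2.22, and Psmb10, Tapbp and H2-D1 were within their spread of each other. The remaining mSC levels were 3.06 ± 1.06 RPKM for Tap2, 2.24 ± 0.841 for Tap1, 1.05 ± 1.16 for Psmb9, 0.552 ± 0.260 for Nlrc5 and 0.447 ± 0.226 for Psmb8. Neighbours among these 5 overlapped within their spread.

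Olfactory and vomeronasal receptor genes, which Schwann cells are not known to use, served as a low-signal reference. The mean of 1510 such genes was 0.310 RPKM in mSC, 0.436 in allSC and 0.501 in nmSC, and was 1.62-fold higher in nmSC than in mSC. This is the direction of the members that fell. The 95th percentile of these genes was 0.704 RPKM in mSC, and the mSC means of Psmb8 and Nlrc5 lay under it, at 0.635 and 0.784 times that level, so that the mSC level of both was not distinguishable from that of genes taken to be silent. The mSC mean of Psmb9 was 1.49 times that level through the library of mouse 1, and the other mSC libraries lay under it. In nmSC, Psmb8 stood at 7.29 times and Nlrc5 at 1.43 times the 95th percentile. With the union of exons as length, Nlrc5 lay under it in every gate and Psmb9 also in mSC. The part of this background in the differences was not tested.

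**Figure D3:**
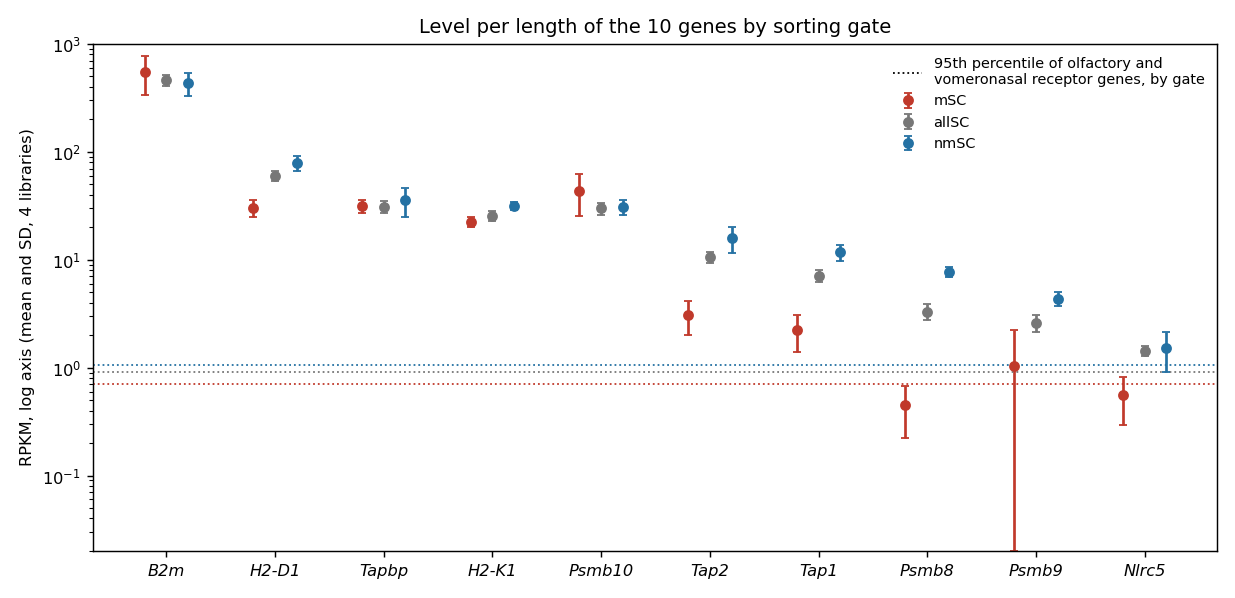
RPKM of the members on a log axis, as the mean and SD of 4 libraries per gate, ordered by their nmSC level, with dotted lines at the 95th percentile of the receptor genes in each gate. Psmb8 and Nlrc5 in mSC lie under the mSC line of 0.704 RPKM, and the lower SD bar of Psmb9 in mSC runs off the axis because its SD exceeds its mean.

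The ratio of an inducible subunit to the constitutive subunit it replaces, taken per length within a library, does not depend on how libraries are scaled. Psmb8 amounted to 0.592%, 0.266%, 0.168% and 0.368% of Psmb5 in the mSC libraries of mice 1 to 4, to 2.85%, 2.97%, 2.14% and 3.16% in allSC, and to 5.04%, 7.03%, 6.90% and 7.91% in nmSC. The gates were separate, in the order mSC, allSC, nmSC. The mSC and nmSC ratios differed by -4.40 on the log2 scale (two-sided exact permutation test, p = 0.0286, adjusted over 9 ratio comparisons 0.0643). That p is the smallest that 4 libraries against 4 allow, and no ratio passed the threshold after adjustment over these 9.

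Psmb9 amounted to 2.62%, 0.293%, 0.218% and 0.219% of Psmb6 in mSC and to 2.33%, 2.84%, 2.49% and 4.32% in nmSC. Here the mSC library of mouse 1 lay within the nmSC range, and the log2 difference was -2.73 (exact permutation p = 0.0857, adjusted 0.110). Psmb10 amounted to 80.3%, 63.6%, 78.9% and 79.7% of Psmb7 in mSC and to 57.3%, 71.7%, 69.5% and 60.3% in nmSC. The gates overlapped through the mSC library of mouse 2 (log2 difference 0.22, exact permutation p = 0.0857, adjusted 0.110). The level of the inducible subunit relative to its counterpart was thus low for Psmb8 and Psmb9 in every gate and high for Psmb10. The size of these ratios depends on the lengths used. By counts without lengths, Psmb10 ran from 22.8% to 32.0% of Psmb7 in mSC and nmSC, and Psmb8 reached 12.5% of Psmb5 in nmSC. The constitutive Psmb5, Psmb6 and Psmb7 did not pass the test between mSC and nmSC (log2 fold changes 0.33, 0.29 and 0.28, adjusted p = 0.158, 0.270 and 0.25 by edgeR).

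**Figure D4:**
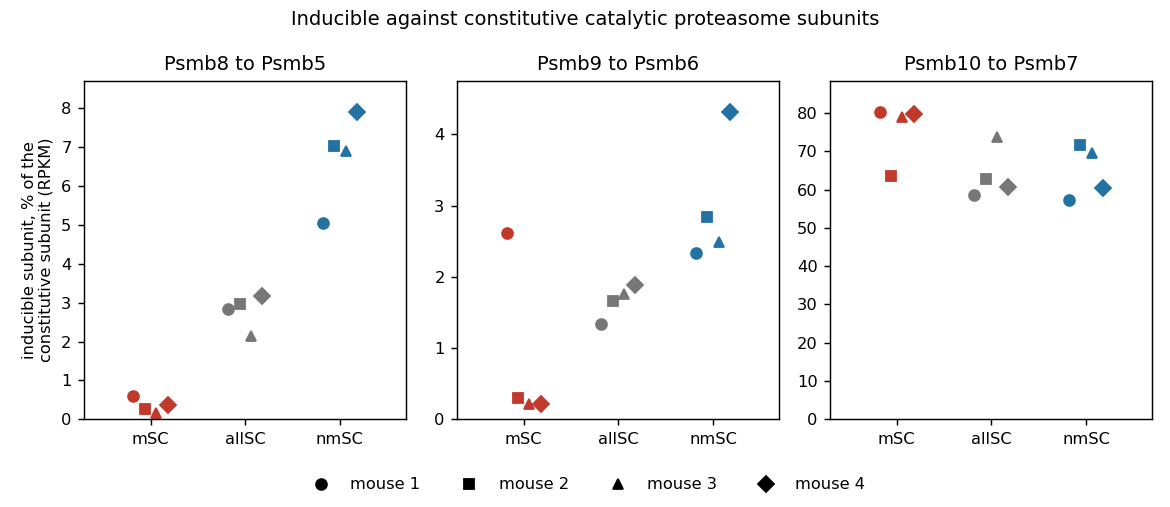
RPKM of each inducible proteasome subunit as a percentage of that of the constitutive subunit it replaces (linear axes from 0), 1 point per library and a symbol per mouse. Psmb8 relative to Psmb5 reaches at most 0.592% in the mSC libraries and at least 5.04% in nmSC, while Psmb10 relative to Psmb7 is between 57.3% and 80.3% in both gates.

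The other genes of the pathway were taken from lists chosen by role. Of 18 other class I and class I-like heavy chains, 14 passed the filter, and in mSC against nmSC 6 were lower, 1 was higher and 7 were not called, against 20.1% lower and 20.4% higher among all genes tested, with a median log2 fold change of -0.60 against -0.16 for all genes. The 6 were H2-Q4 (-2.83, SE 0.558, adjusted p = 4.61e-04), H2-Q7 (-2.15, adjusted p = 0.00249), Cd1d1 (-1.48, adjusted p = 9.44e-05), H2-T3 (-1.32, adjusted p = 0.0216), Hfe (-0.83, adjusted p = 0.0110) and H2-T22 (-0.59, adjusted p = 0.0321). Cd1d1 presents lipids and Hfe acts in iron uptake, and neither presents peptides. The counts moved with the filter. With at least 20 counts in at least 4 libraries, 10 were tested, 5 were lower and 1 was higher. Without a filter 18 were tested, 6 were lower and 1 was higher. A gene with few reads in mSC can pass the filter through the other gates alone, which ties its direction to the filter. H2-Q4 and H2-Q7 were under the 95th percentile of the receptor genes in every gate by mean transcript length. By the union of exons H2-Q4 was at 1.06 times that level in nmSC. In 1 mSC library H2-Q4 was at 0 reads. By mean transcript length H2-T3 was also under the 95th percentile in mSC and allSC, at 0.669 and 0.906 times it. The call of H2-T22 was lost with the scaling of DESeq2 (adjusted p = 0.0544), its Wald test (0.0674) and the 2-gate fit (0.0522).

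Fcgrt, the class I-like heavy chain of the neonatal Fc receptor, which also pairs with β2-microglobulin, went the other way. It averaged 226 ± 40.7 CPM (SD, n = 4) in mSC, 133 ± 10.9 in allSC and 69.4 ± 11.2 in nmSC. The gates did not overlap. It was higher in mSC than in nmSC (log2 fold change 1.70, SE 0.146, adjusted p = 1.60e-08).

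Of 11 partners in peptide loading and trimming, all tested, 2 were higher in mSC, 1 was lower and 8 were not called, against 20.4% higher and 20.1% lower among all genes tested. Canx, the chaperone that holds the free heavy chain, was higher in mSC (0.83, adjusted p = 5.09e-06), and so was Ide, a peptidase (0.72, adjusted p = 8.49e-04), although the latter was not called with scaling by size alone (0.18, adjusted p = 0.346). Erap1, which trims peptides in the endoplasmic reticulum, was lower (-0.46, adjusted p = 0.0381), a call lost under 4 alternatives (adjusted p up to 0.111). Calr and Pdia3, partners of tapasin in the loading complex, were at 0.19 each (adjusted p = 0.175 and 0.212). Of the 8 constitutive catalytic subunits, activators and assembly factors, 1 was lower and 0 were higher, both under those shares. This was Psme1, a subunit of the activator that interferon-γ raises (-0.66, adjusted p = 0.00650), while its partner Psme2 was at 0.09 (adjusted p = 0.778).

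Of 24 genes of interferon signalling and class I transcription, 22 passed the filter, and 5 were lower in mSC than in nmSC, 2 were higher and 15 were not called. This is close to the 20.1% lower and under the 20.4% higher among all genes tested, so that the counts do not set the list apart. Ifng and Ifnb1, 2 of the ligands, did not pass it. Irf1, the interferon regulatory factor that acts on class I genes, had the largest difference of the list. It ranged from 25.9 to 43.4 CPM in mSC, from 98.8 to 169 in allSC and from 179 to 210.2 in nmSC. The 3 gates did not overlap. Irf1 was lower in mSC than in nmSC (-2.65, SE 0.186, adjusted p = 8.48e-10) and than in allSC (-2.0, adjusted p = 1.54e-07), and higher in nmSC than in allSC (0.65, adjusted p = 0.0188).

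Irf2, a related factor, was also lower in mSC than in nmSC (-1.30, adjusted p = 2.27e-05). So were Ciita, the class II transactivator (-1.04, adjusted p = 0.0287), Nfkb1 (-0.43, adjusted p = 0.0139) and Creb1 (-0.46, adjusted p = 0.0426). By mean transcript length Ciita was under the 95th percentile of the olfactory and vomeronasal receptor genes in every gate, at 0.623 times it in mSC and 0.852 times in nmSC. With the mouse as a block the adjusted p of Creb1 was 0.0602, and its call was also lost with the scaling of DESeq2 (0.0758). The same held without a filter (0.0636), with the 2-gate fit (0.0967) and with the DESeq2 Wald test (0.104). Of the 2 that were higher in mSC, neither was called with scaling by size alone. Jak2, a kinase that carries the interferon signal, was at 0.77 (adjusted p = 0.00135), and at 0.21 (adjusted p = 0.318) with that scaling. The receptor genes Ifngr1, Ifngr2, Ifnar1 and Ifnar2 were between -0.20 and 0.37 and not called. Rfx5, which binds the X box, was at -0.51 (adjusted p = 0.0600), and the Y box factors Nfya, Nfyb and Nfyc were between -0.32 and -0.14, none called.

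**Figure D5:**
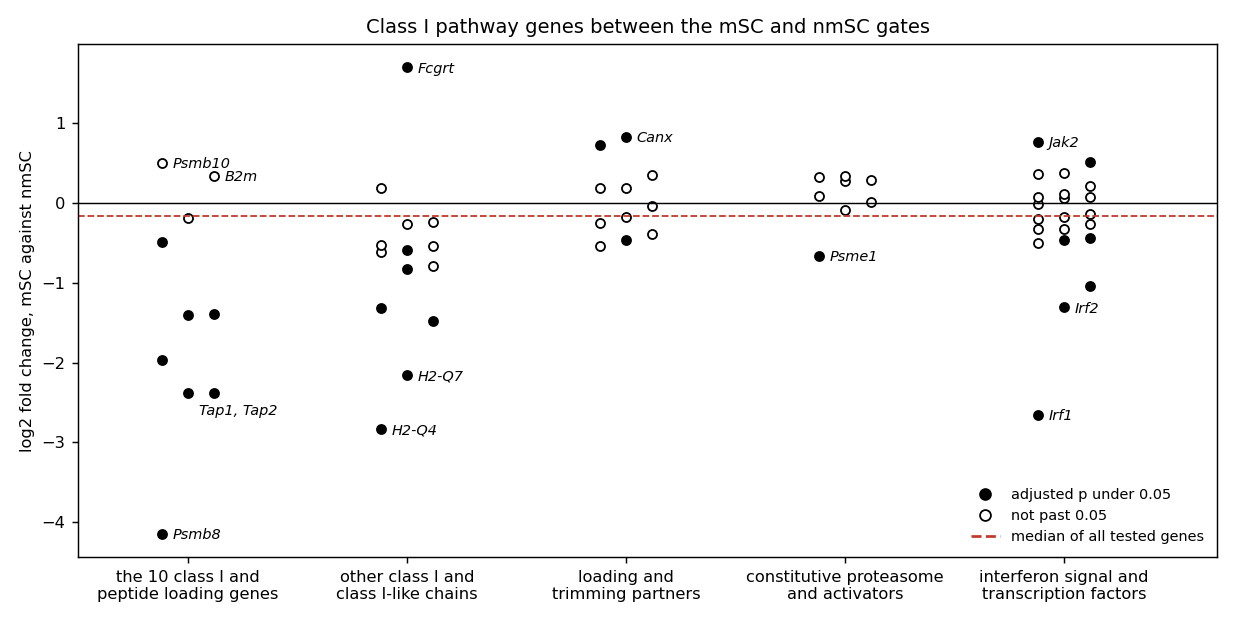
Log2 fold change of mSC against nmSC for the tested genes of the members and of 4 pathway lists, 1 point per gene, filled for an adjusted p under 0.05, with a dashed line at the median of all tested genes (-0.16). The constitutive proteasome genes lie between -0.66 and 0.34, while the members reach -4.15 and Irf1 lies at -2.65.

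Immune and endothelial cells carry class I genes at high levels, so their markers were measured beside the members. Of 17 immune markers 11 passed the filter, and Cd68, Itgam and H2-Aa were lower in mSC than in nmSC, with 8 not called, against 20.1% of all genes tested that were lower. By mean transcript length Itgam and H2-Aa were under the 95th percentile of the olfactory and vomeronasal receptor genes in every gate. The median log2 fold change over these 11 was -0.69, against -0.16 over all genes. The summed immune markers ranged from 27.9 to 33.6 CPM in mSC, from 30.1 to 45.8 in allSC and from 29.4 to 46.1 in nmSC. Among defining markers, Aif1 was at 0 reads in 5 of the 12 libraries and Tyrobp in 4, with at most 5 and 8 reads elsewhere, whereas Ptprc had 39 to 158 reads, Csf1r 56 to 213, H2-Ab1 41 to 88, Adgre1 9 to 41 and Cd68 9 to 34, and were found in every library. Summed endothelial markers were higher in mSC, at 50.1 to 72.5 CPM against 15.8 to 23.6 in nmSC. The median log2 fold change over the 5 tested endothelial markers went the other way, at -0.95. Kdr and Egfl7 were higher and Pecam1 and Tek lower. The call of Pecam1 was lost with the scaling of DESeq2 (adjusted p = 0.0562), its Wald test (0.0556) and no filter (0.0657). By mean transcript length Pecam1 and Tek were under that percentile of the receptor genes in every gate. Summed fibroblast and mural markers ranged from 27.7 to 56.5 CPM in mSC and from 41.2 to 50.1 in nmSC. The part of other cells in the members' differences was not tested.

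Some reads could not be assigned to 1 member with certainty. The library method does not mark strand, so that reads where genes overlap cannot be told apart. Tap1 and Psmb9 overlap head to head, Psmb8 and Tap2 overlap the antisense gene Gm20496, Tapbp overlaps Gm19412 and Zbtb22, B2m overlaps Patl2, Psmb10 overlaps Gm16156, and Nlrc5 overlaps 9330175E14Rik and Mir7072. Of all stretches of 1 read's length in the transcripts of a member, the share also found in transcripts of other genes, on either strand, was highest for Tapbp (12.6%), Psmb8 (5.94%), H2-D1 (2.62%), Psmb9 (2.08%) and Tap2 (2.03%), and was 0.0720% for H2-K1. For H2-D1 the partners were H2-Q1, H2-T23, Gm7030 and Gm8909.

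The genes whose pattern over the 12 libraries was most like the mean of H2-K1, H2-D1 and B2m, among 9393 genes of at least 10 CPM, were Cks1b (Pearson's r = 0.979), Prdx4 (0.973), Selenoh (0.965), S100a4 (0.963) and Hbegf (0.963). These values describe the libraries, which share gates, mice and scaling factors, and carry no test.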

How the data were processed

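The deposited table holds raw read counts per gene, which the authors made from single-end reads. The submitters' processing notes name bcl2fastq, STAR 2.6.1c, featureCounts and the build GRCm38.p5, and the methods name a human build for this step although the identifiers are those of mouse. How strand, reads with several matches and overlapping genes were handled is not given in the sources used here. Symbols, positions and transcript lengths came from GENCODE M21 (GRCm38), which matched 25664 of the 25700 identifiers.

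TMM factors and CPM were computed from the counts (edgeR 4.0.16, R 4.3.3). The expression filter was applied by gate, and a quasi-likelihood fit with a mean per gate was made on all 12 libraries. SE is the log2 fold change divided by the root of the F value. Alternatives were other scalings, other filters, the DESeq2 1.42.0 Wald test, 2-gate fits, the mouse as a block, and leaving out each library. The edgeR fit of mSC against nmSC was tested on simulated data in which as many genes were raised as lowered. That simulation does not test how the scalings treat a shift of most genes. Ratios used a pseudocount of 0.5 counts and scipy 1.17.1. No libraries of a gate were duplicates (chi-square per degree of freedom at least 4.03). The labels' subject number gives same-numbered libraries of different gates 1 mouse, so the numbers pair them, while the correlation of their deviations from the gate means was between -0.079 and 0.153. Both sexes are mixed in each gate, and sex was not used, since the labels do not give it by library. Floors and intervals on counts cover counting error only. Members were named in full, other genes as part of their lists, and 5 genes by likeness to the heavy and light chains, with a correlation over 12 libraries. The members and lists were chosen with earlier results of these data known. A few genes of the lists are not reported here.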

Additional observations from a re-analysis of the deposited data

Results flagged for a closer look

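In 39 groups of 4 libraries (the CPM of each member and the 3 subunit ratios, by gate), 3 held a library whose gap to the nearest other exceeded Dixon's 95% critical value, where chance flags about 1 group in 20. Psmb9 stood at 3.05 CPM in mSC replicate 1, far above the other mSC libraries (gap over range 0.912), and Psmb9 amounted to 2.62% of Psmb6 in the same library (0.969). Psmb10 amounted to 63.6% of Psmb7 in mSC replicate 2, the lowest of that gate (0.913).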

How the results depend on the processing

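The 7 members lower in mSC than in nmSC were called lower under every alternative run, and 7 to 9 members were called in all when a library was left out. Against allSC the mSC count ran from 4 to 7 and the nmSC count from 1 to 2 when a library was left out, the mSC count was 7 with both scalings by library size and with the DESeq2 Wald test, and the nmSC count was 5 with library size alone, with library size less the 50 genes with the most counts, and with only the 2 gates in the fit. The replicate block by mouse gave 7, 5 and 2 called members and changed no member's call, and under it the ratios of Psmb8 gave -4.40, -3.13 and 1.27 (exact sign-flip p = 0.125, the smallest it allows). In mSC against nmSC, scaling by library size alone moved the median of all genes from -0.16 to -0.73 and called 1448 genes higher and 10392 lower, against 3794 and 3746, and less the top 50 genes it gave -0.52 with 2058 and 7635. In mSC against allSC these scalings gave 417 and 3961, and 643 and 2728, against 1630 and 1636, and in nmSC against allSC 2194 and 744, and 1215 and 943, against 525 and 1404, where the 2-gate fit gave 1149 and 1750. The median of the members less that of all genes was -1.24 under TMM, under both scalings by library size and under DESeq2 size factors (mSC against nmSC). Some differences changed sign, none of them called in the fit given in the report or where the sign had changed. With library size alone they were B2m (-0.26) and Psmb10 (-0.091) in mSC against nmSC, B2m (-0.074) and Tapbp (-0.27) in mSC against allSC, and B2m (0.18) in nmSC against allSC. Less the top 50 genes they were B2m (-0.047, and 0.082 in nmSC against allSC) and Tapbp (-0.18 in mSC against allSC), and Tapbp against allSC was -0.0045 with at least 20 counts in 4 libraries and -0.018 with 2 gates. Leaving out a library, Tapbp ranged from -0.30 to 0.032 in mSC against nmSC, from -0.042 to 0.14 in mSC against allSC and from -1.6e-04 to 0.33 in nmSC against allSC. In the latter comparison Psmb10 ranged from -0.045 to 0.14, Nlrc5 from -0.12 to 0.33, B2m from -0.24 to 0.034, and the log2 ratio of Psmb10 to Psmb7 from -0.033 to 0.089. The cause of these changes was not tested. Genes at or under 3 reads, such as Psmb8 in 1 mSC library, are at the limit of detection at this depth.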
